A study of Mus musculus with 24 samples.

Results

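The comparison described here set the polysome-associated RNA of calorie-restricted (CR) mouse liver against that of ad libitum fed (AL) liver at ZT22, the zeitgeber hour 22. It used 4 of the 24 libraries of the series, chosen by diet and hour as labelled: CR ZT22 1 and CR ZT22 2 against AL ZT22 2C and AL ZT22 2d. The CR mice were of the C57BL/6 strain, were 5 months old, and had been on a diet restricted by 30% for 3 months from the age of 2 months. The AL mice shared the strain and the age and ate freely. Neither the sex of the mice nor the feeding hours are given in the sources used here. The labels do not say that the 2 libraries of a group came from separate animals, and both AL libraries carry the number 2, so the p-values reflect only how far these libraries differ, and that spread may be technical. The other 20 libraries, 2 per diet at 5 other hours, entered the same model to share its estimate of the spread.

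Polysomes are mRNAs carrying several ribosomes, so RNA purified from them samples messages under translation. Total RNA was not analysed here, and a change in the amount of an mRNA and a change in its loading onto ribosomes cannot be told apart. In bulk tissue, fewer cells of a type and less RNA per cell cannot be told apart either. Rodent liver has a large set of sex-biased genes. The pattern in which the pituitary secretes growth hormone, pulsed in males and more continuous in females, sets them through the transcription factor STAT5. The liver also mounts the acute phase response, in which interleukin-6 acting through STAT3, and interleukin-1, raise secreted plasma proteins such as serum amyloid A. Calorie restriction is known for low growth hormone signalling and for fasting-type metabolism.

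The CR libraries held 45.04 M and 28.5 M counts, and the AL libraries 17.5 M and 18.2 M. Features that collect ribosomal RNA took 2.94% and 43.8% of the counts in the CR libraries, against 61.3% and 62.2% in the AL libraries, which left 43.7 M and 16.03 M other counts in CR and 6.76 M and 6.88 M in AL. Library CR ZT22 1 stood apart from the other 3 in this share. The hepatocyte marker Alb, serum albumin, was at 27141 and 30583 counts-per-million (CPM, on library sizes adjusted for composition) in CR and at 17787 and 50808 CPM in AL. All 12 hepatocyte markers were measured and none passed the test. Hba-a1, a haemoglobin gene of red cells, was at 296 and 1337 CPM in CR and 279 and 383 CPM in AL. Hbb-bs, another, was at 349 and 2049 CPM in CR and 422 and 426 CPM in AL, and at most 1084 CPM in the other 20 libraries. The summed erythroid genes of CR ZT22 2, at 4415 CPM, were the highest of the 24 libraries. The erythroid gene Alas2 did not follow, at 3.87 and 11.8 CPM in CR and 19.7 and 23.3 CPM in AL. Acinar Prss1 had 0 counts in all 4 libraries.

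Of 15490 genes tested, 145 differed between the diets at ZT22 at an adjusted p below 0.05 (edgeR, quasi-likelihood, Benjamini-Hochberg), which is 0.936% of the genes. In CR liver 58 genes were higher (0.374%) and 87 lower (0.562%), and every one of the 145 changed at least 2-fold. Most calls within the lists examined fell among sex-biased liver genes: female-biased genes were higher in CR and male-biased genes, including the major urinary proteins, were lower. Terminal complement components were also lower in CR. Serum amyloid transcripts were called lower as well, but stood high in AL ZT22 2C alone. In 142 of the 145 genes the CR and AL libraries did not overlap, against 50.4% of all genes tested. The other 3 were Saa1, Saa2 and Moxd1. Since the 145 were chosen on these same values, the lack of overlap follows in part from that choice and is no added support.

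Each library bore on these counts. Without AL ZT22 2C 60 genes were called (0.387%), 9 higher in CR (0.0581%) and 51 lower (0.329%). DESeq2 called 526 (3.4%), 258 higher (1.67%) and 268 lower (1.73%), and all 145 were among them. With AL ZT22 2C left out 53 of the 145 genes remained called, with AL ZT22 2d left out 72, with CR ZT22 2 left out 48 and with CR ZT22 1 left out 6; the lone library of a group was then assumed to vary like the other groups. The sign stayed the same in all 4 omissions for 144 genes, the exception being Moxd1. The 6 genes called without CR ZT22 1 included Cyp39a1, A1bg, Cyp2b9, Cyp2c69 and Sult2a2. With the ratio of ribosomal to other counts as a covariate 130 genes were called, 106 of them among the 145. Scaling by total counts alone shifted all genes upward in CR, to a median log2 fold change of 0.91 in place of -0.03, and gave 1637 higher and 66 lower genes in CR.

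**Figure D1:**
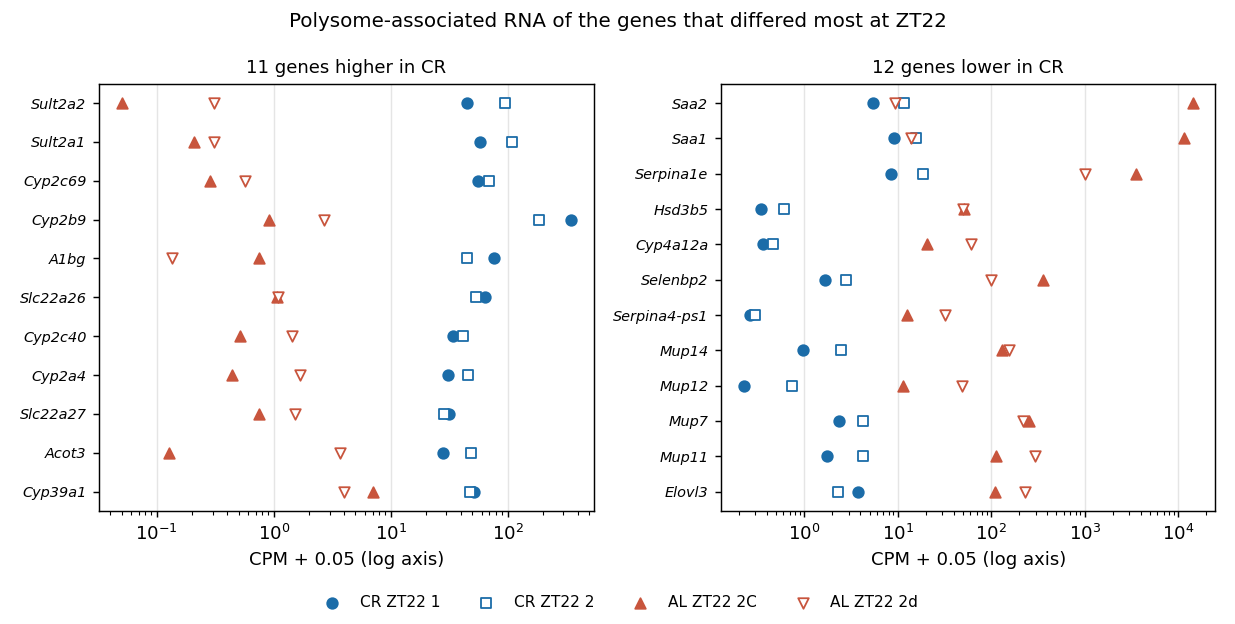
CPM of 11 higher and 12 lower genes among those of largest fold change in CR, one point per library, on a log axis. In the higher panel both CR libraries lie right of both AL libraries in every row, whereas in the lower panel the Saa1 and Saa2 points of AL ZT22 2d lie with the CR points.

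Among the genes higher in CR liver and averaging at least 10 CPM, the largest folds belonged to enzymes that conjugate or oxidise steroids, bile acids and foreign compounds. Sult2a2, a sulfotransferase of steroids and bile acids, was at 44.7 and 94.8 CPM in CR and at 0 and 0.257 CPM in AL. Its AL level rested on 3 counts in all, and the ratio of CR to AL was 478, with a counting interval of 163 to 2317 (exact, 95%). Sult2a1, its neighbour in the same family, was at 57.7 and 109 CPM in CR and 0.156 and 0.257 CPM in AL (log2 fold change 8.64 ± 1.66, SE; adjusted p = 0.010). In both genes the CR libraries lay far above the AL libraries.

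The cytochromes P450 Cyp2b9, Cyp2c69, Cyp2c40 and Cyp2a4, which hydroxylate steroids and drugs, were higher in CR by log2 fold changes of 7.25, 7.39, 5.37 and 5.26. Cyp2b9 was at 349 and 185 CPM in CR and 0.859 and 2.66 CPM in AL. Cyp39a1, which hydroxylates oxysterols on the way to bile acids, had the smallest adjusted p of the higher genes named here at 0.0023. It was at 51.1 and 47.3 CPM in CR and at 6.95 and 3.95 CPM in AL (3.17 ± 0.46). It was also the one member called among 17 of the list of bile acid synthesis and transport. Close copies could share reads: 33.2% of the 50-base words of Sult2a1, 62.1% of Sult2a2, 60.3% of Cyp2c40, 54.3% of Cyp2c69 and 38.8% of Cyp2a4 occur in another gene, so the split within those families is uncertain. Cyp39a1, with 0 shared words, carries no such doubt.

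A1bg, a secreted plasma glycoprotein, and Slc22a26, an organic anion transporter, each hold the palindrome TTCNNNGAA bound by STAT factors in the 250 bases before their RefSeq start. These upstream stretches are printed because they are the motif-holding promoters among the higher genes of largest fold. The promoters are from RefSeq on build GRCm38.p6, on the minus strand, 5′ to 3′, with the motif in capitals; it lies 84 to 76 bases before the start in A1bg (chr15:60921271-60921520) and 141 to 133 bases before it in Slc22a26 (chr19:7802668-7802917).
A1bg: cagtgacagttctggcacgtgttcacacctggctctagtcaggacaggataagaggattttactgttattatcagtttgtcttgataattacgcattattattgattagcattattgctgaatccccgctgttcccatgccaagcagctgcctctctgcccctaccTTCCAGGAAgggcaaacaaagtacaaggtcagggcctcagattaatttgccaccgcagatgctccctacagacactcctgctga
Slc22a26: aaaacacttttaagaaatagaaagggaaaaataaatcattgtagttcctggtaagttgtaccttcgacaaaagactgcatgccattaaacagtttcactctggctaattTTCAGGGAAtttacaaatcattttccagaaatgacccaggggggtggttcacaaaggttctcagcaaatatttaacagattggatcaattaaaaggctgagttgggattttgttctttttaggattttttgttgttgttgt
The motif, which reads the same on both strands, occurred in the 300-base promoters of 4 of 44 genes called higher (9.09%), 6 of 63 called lower (9.52%) and 8.42% of 11100 tested genes. Its share among the called genes was thus near that of all tested genes. A match in letters is a description and not a binding site.

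A1bg was at 76.6 and 45.4 CPM in CR and 0.703 and 0.0858 CPM in AL, a log2 fold change of 7.22 ± 1.08 (adjusted p = 0.0025). Slc22a26 was at 63.5 and 53.4 CPM in CR and 1.02 and 1.03 CPM in AL (5.83 ± 1.08, adjusted p = 0.0078), and its relative Slc22a27 at 31.4 and 28.4 CPM in CR and 0.703 and 1.46 CPM in AL. Cux2, a homeobox factor that represses male-biased genes and activates female-biased ones in mouse liver, was at 9.97 and 8.34 CPM in CR and 0.625 and 0.0858 CPM in AL (4.64 ± 0.84, adjusted p = 0.0067). The groups did not overlap in any of these genes. The counting used no strand, so reads where A1bg overlaps 4930402D18Rik could not be assigned to one or the other.

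Over the list of female-biased liver genes, 31 of 34 passed the filter on low counts and 13 were called higher in CR and 0 lower, with a median log2 fold change of 3.82 beside -0.03 for all genes. In 27 of the 31 the libraries did not overlap with CR higher, against 25.9% of all genes. The 18 members not called included Cyp2b13, at 11.1 and 9.07 CPM in CR and 0.547 and 0.343 CPM in AL, and Cyp2a22, at 53.2 and 68.8 CPM in CR and 0.625 and 4.29 CPM in AL. Summed over the list, CR held 1935 and 1989 CPM, against 215 and 497 CPM in AL. The calls fell to 3 without AL ZT22 2C, 7 without AL ZT22 2d, 6 without CR ZT22 1 and 9 without CR ZT22 2, while the median stayed between 3.40 and 4.20.

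Among the lower genes averaging at least 10 CPM, those of largest fold after the serum amyloids were male-biased. Serpina1e, a protease inhibitor of the antitrypsin family, was at 8.47 and 18.8 CPM in CR and at 3565 and 1019 CPM in AL (-7.40 ± 1.17, adjusted p = 0.0032). Hsd3b5, a male-specific steroid reductase, was at 0.295 and 0.558 CPM in CR and 50.5 and 49.5 CPM in AL. It had one of the smallest adjusted p-values of the comparison (-6.95 ± 0.92, adjusted p = 0.0017). Cyp4a12a, a male-specific fatty acid hydroxylase, was at 0.308 and 0.419 CPM in CR and 20.8 and 60.8 CPM in AL (-6.84 ± 1.17, adjusted p = 0.0041). Selenbp2, a selenium-binding protein, was at 1.61 and 2.76 CPM in CR and 355 and 100.4 CPM in AL. In each of these genes both CR libraries lay below both AL libraries, though the AL libraries differed between themselves by more than 2-fold in Serpina1e, Cyp4a12a and Selenbp2. The shares of words found in other genes were 34.6% for Serpina1e, 21.2% for Hsd3b5, 48.9% for Cyp4a12a and 43.9% for Selenbp2.

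Elovl3, a fatty acid elongase with a daily rhythm in mouse liver, was at 3.70 and 2.27 CPM in CR and 111 and 233 CPM in AL (-5.83 ± 1.08, adjusted p = 0.0078). It was the one called member among 20 clock output genes. Egfr, the receptor of epidermal growth factor, was at 17.5 and 17.7 CPM in CR and 480 and 135 CPM in AL (-4.13 ± 0.84, adjusted p = 0.016). Without AL ZT22 2C its log2 fold change was -2.94 and its adjusted p 0.21. Slco1a1, an organic anion transporter of male liver, was at 2.39 and 4.08 CPM in CR and 87.0 and 177 CPM in AL.

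The major urinary proteins, lipocalins that male mice secrete to carry pheromones in urine, fell together. Of 22 listed members 19 passed the filter on low counts, and 15 of these were called lower in CR and 0 higher, with a median log2 fold change of -5.28. Mup20, the male pheromone darcin, was at 40.2 and 56.0 CPM in CR and 1869 and 3012 CPM in AL (-5.67 ± 1.01, adjusted p = 0.006). Mup3, with 13.3% of its words shared, the smallest share among the called members, was at 108 and 173 CPM in CR and 2477 and 5079 CPM in AL (-4.75 ± 0.79). Mup7 was at 2.32 and 4.26 CPM in CR and 252 and 222 CPM in AL. Words shared with other genes reached 86.7% in Mup7 and 100% in Mup15 and Mup22, so single members are uncertain. Of the 4 members not called, Mup4 and Mup6 had 0 counts in all 4 ZT22 libraries. The family sum is less affected by such splitting, at 163 and 254 CPM in CR against 5069 and 9269 CPM in AL. Calls numbered 15 without AL ZT22 2C, 11 without AL ZT22 2d, 0 without CR ZT22 1 and 6 without CR ZT22 2; the median stayed between -5.83 and -4.48.

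The list of male-biased liver genes, which holds 7 of the urinary proteins and 3 complement components, had 24 of 32 members called lower in CR and 0 higher, with a median of -4.47. In 30 members CR lay below AL without overlap, against 24.5% of all genes. Its sum was 1097 and 1046 CPM in CR and 13075 and 13388 CPM in AL. The AL sums at ZT22 were themselves below those of every AL library at the other hours, which ran from 16835 to 46174 CPM. Among the CR libraries at other hours the sums ran from 1040 to 13161 CPM, and CR ZT6 2 and CR ZT18 2 stood at 13161 and 12545 CPM, near the AL sums at ZT22. With those 2 left out of the shared spread, 177 genes were called at ZT22. Leaving out AL ZT22 2C or AL ZT22 2d left 20 calls each in the list, CR ZT22 2 left 9 and CR ZT22 1 left 0.

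Of the growth hormone axis itself, the list of 18 genes had 1 call in each direction, Cux2 and Egfr. Ghr, the growth hormone receptor, was at 96.8 and 141 CPM in CR and 350 and 399 CPM in AL and was not called. Igf1, the growth factor that growth hormone induces, was at 546 and 402 CPM in CR and 475 and 557 CPM in AL, with overlapping groups. Stat5b was at 33.97 and 34.1 CPM in CR and 35.4 and 30.5 CPM in AL. Bcl6, a repressor that is male-biased in mouse liver, was at 6.54 and 4.29 CPM in CR and 16.2 and 12.5 CPM in AL without a call.

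**Figure D2:**
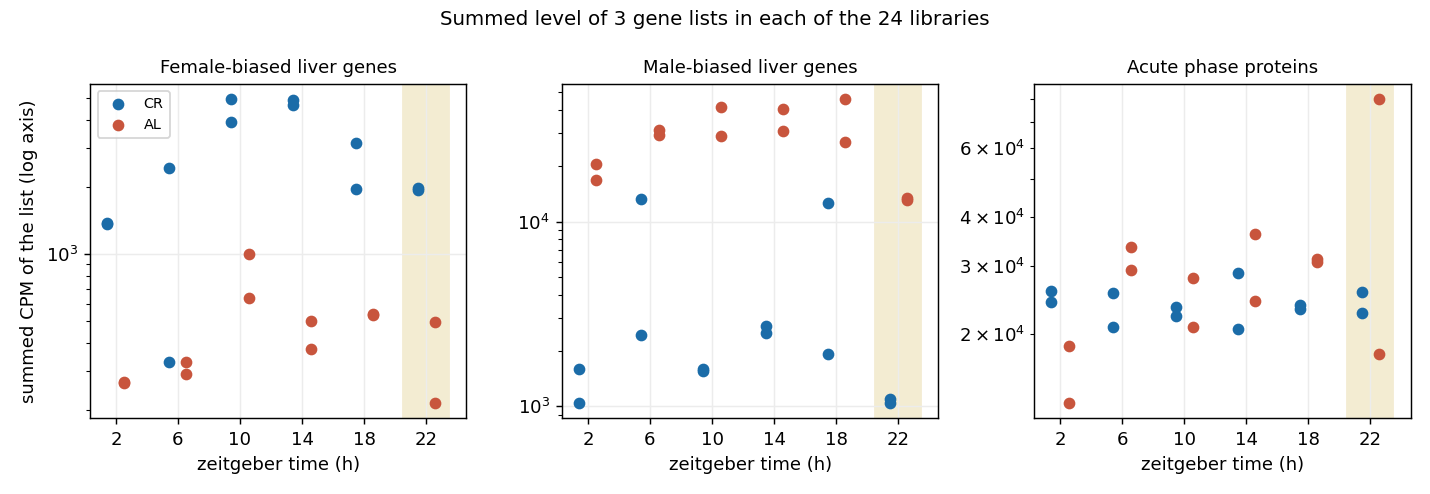
Summed CPM of 3 gene lists in each of the 24 libraries by zeitgeber hour, on a log axis, with ZT22 shaded and one point per library. At ZT22 the female-biased sum is 1935 and 1989 CPM in CR against 215 and 497 CPM in AL, the male-biased sum is lower in CR, and the acute phase sum of 1 AL library, 2C, stands above all others at 80286 CPM.

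Components of the membrane attack complex of complement, the pore assembled on microbial membranes, were lower in CR. C9, which forms the pore's ring, was at 36.6 and 71.2 CPM in CR and 516 and 408 CPM in AL (-3.10 ± 0.43, adjusted p = 0.0017). C6 was at 5.53 and 7.40 CPM in CR and 139 and 92.0 CPM in AL (-4.16 ± 0.71, adjusted p = 0.0041). C8b, one chain of the eighth component, was at 15.0 and 20.2 CPM in CR and 201 and 118 CPM in AL (-3.18 ± 0.53, adjusted p = 0.0041). The CR and AL libraries did not overlap in any of the 3, and C6, C8b and C9 remained called without either AL library. C8a, another chain of that component, was at 23.2 and 43.6 CPM in CR and 856 and 367 CPM in AL (-4.20 ± 0.76, adjusted p = 0.0062), and its adjusted p without AL ZT22 2C was 0.061.

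The upstream 250 bases of C8a (chr4:104876399-104876648, minus strand, RefSeq, GRCm38.p6) are printed because the same STAT palindrome, in capitals, lies 228 to 220 bases before the start of this gene, which was lower in CR.
C8a: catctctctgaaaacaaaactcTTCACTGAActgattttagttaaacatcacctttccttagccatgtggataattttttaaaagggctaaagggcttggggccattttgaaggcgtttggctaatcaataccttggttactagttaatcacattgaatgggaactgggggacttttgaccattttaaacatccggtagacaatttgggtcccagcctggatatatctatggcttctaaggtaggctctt
It is 1 of the 6 promoters with the motif among 63 genes called lower.

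Over the complement and coagulation list 5 of 38 members were called lower in CR and 0 higher, the fifth being Serping1, the inhibitor of the first complement component, at 98.6 and 107 CPM in CR and 530 and 275 CPM in AL. The list's median was -0.76, and 0.19 when scaled by total counts alone, where 4 members were called lower and 1 higher. C3, the central component, was at 8294 and 7465 CPM in CR and 6249 and 3390 CPM in AL, above both AL libraries in CR and without a call. The list's sum overlapped between the groups, at 20629 and 19221 CPM in CR and 21660 and 14512 CPM in AL. Leaving out AL ZT22 2C left 3 calls, CR ZT22 2 left 2 and CR ZT22 1 left 0.

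At ZT22 acute phase transcripts differed widely between the 2 AL libraries. Saa2 (chr7:46751790-46754313, plus strand) was at 5.36 and 11.7 CPM in CR and at 14446 CPM in AL ZT22 2C and 9.27 CPM in AL ZT22 2d. Its neighbour Saa1 (chr7:46740497-46742980, minus strand) was at 9.11 and 15.5 CPM in CR and at 11600 and 13.7 CPM in the same 2 AL libraries. Both encode serum amyloid A, and 30.0% and 31.5% of their words are shared, so their split is uncertain. AL ZT22 2d therefore lay within the CR range for both genes and AL ZT22 2C far above it. The model called Saa2 lower at -9.74 ± 2.12 (adjusted p = 0.026) and Saa1 at -8.89 ± 1.97 (adjusted p = 0.029). Without AL ZT22 2C these values were -0.13 and -0.16, with adjusted p of 0.99 and 0.98. At the other 5 hours both genes were called lower in CR, Saa1 by a log2 fold change of -3.13 ± 0.68 (adjusted p = 0.0042) and Saa2 by -2.86 ± 0.70 (adjusted p = 0.011). The AL libraries at those hours held at least 44.2 CPM of Saa1 and 18.1 CPM of Saa2, so AL ZT22 2d was the lowest AL library of the series for both.

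The same division ran through most of the list. Of 33 members measured, 31 were higher in AL ZT22 2C than in AL ZT22 2d, 23 of them at least 2-fold, against 15.4% of all genes, and 8 at least 10-fold. The median ratio of 2C to 2d was 3.25, against 0.973 over all genes. In 20 members AL ZT22 2C was the highest of the 24 libraries. AL ZT22 2d lay below both CR libraries in 20 members and above both in 7. The shares of all genes that would go beside these last counts were not computed, so the counts are a description only.

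Orm2, an orosomucoid carrier protein, was at 91.8 and 149 CPM in CR, 1643 CPM in AL ZT22 2C and 11.2 CPM in AL ZT22 2d. Lcn2, an iron-siderophore binding lipocalin, was at 6.86 and 7.36 CPM in CR and at 299.7 and 1.46 CPM in those AL libraries. Hp, the haemoglobin scavenger haptoglobin, was at 3635 and 2388 CPM in CR and 6939 and 1143 CPM in AL. In Orm2, Lcn2 and Hp the CR libraries lay between the 2 AL libraries. Fga, a fibrinogen chain, was at 484 and 567 CPM in CR and 2801 and 863 CPM in AL, and so was higher in both AL libraries without a call. Crp was at 113 and 124 CPM in CR and 118 and 136 CPM in AL, and did not share the division.

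Hamp, the iron hormone hepcidin that interleukin-6 induces through STAT3, was at 599 and 341 CPM in CR and 826 and 1072 CPM in AL and was not called. Like Crp, Hamp was lower in AL ZT22 2C than in AL ZT22 2d and so did not share the division. The 250 bases upstream of its start (chr7:30944030-30944279, minus strand, RefSeq, GRCm38.p6) hold the STAT palindrome 97 to 89 bases before it, shown in capitals. It is printed as an example of the motif in the acute phase list, and not of the list's values.
Hamp: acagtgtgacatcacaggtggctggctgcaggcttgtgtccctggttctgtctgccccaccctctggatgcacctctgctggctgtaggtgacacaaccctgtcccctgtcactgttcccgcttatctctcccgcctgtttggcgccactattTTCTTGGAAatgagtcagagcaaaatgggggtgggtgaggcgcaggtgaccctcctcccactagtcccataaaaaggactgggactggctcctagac
In that list 7 of 27 promoters held the palindrome (25.9%), beside 8.42% of tested genes. The list was drawn up from genes of a response that acts in part through STAT3. This share therefore describes the choice of members and is not a result of these libraries.

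In the sum over the list the CR libraries held 25690 and 22637 CPM, AL ZT22 2C 80286 CPM and AL ZT22 2d 17832 CPM. At the other hours the sums ran from 20619 to 28651 CPM in CR and from 13343 to 36215 CPM in AL, so that AL ZT22 2C stood above every library of the series and AL ZT22 2d within the AL range. Called members were 2 of 33, both lower in CR, with a list median of -1.01. The median was 0.47 with 0 calls when AL ZT22 2C was left out, and -1.62 with 11 lower when AL ZT22 2d was left out. Scaling by total counts alone gave a median of 0.00 with 3 lower and 1 higher.

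**Figure D3:**
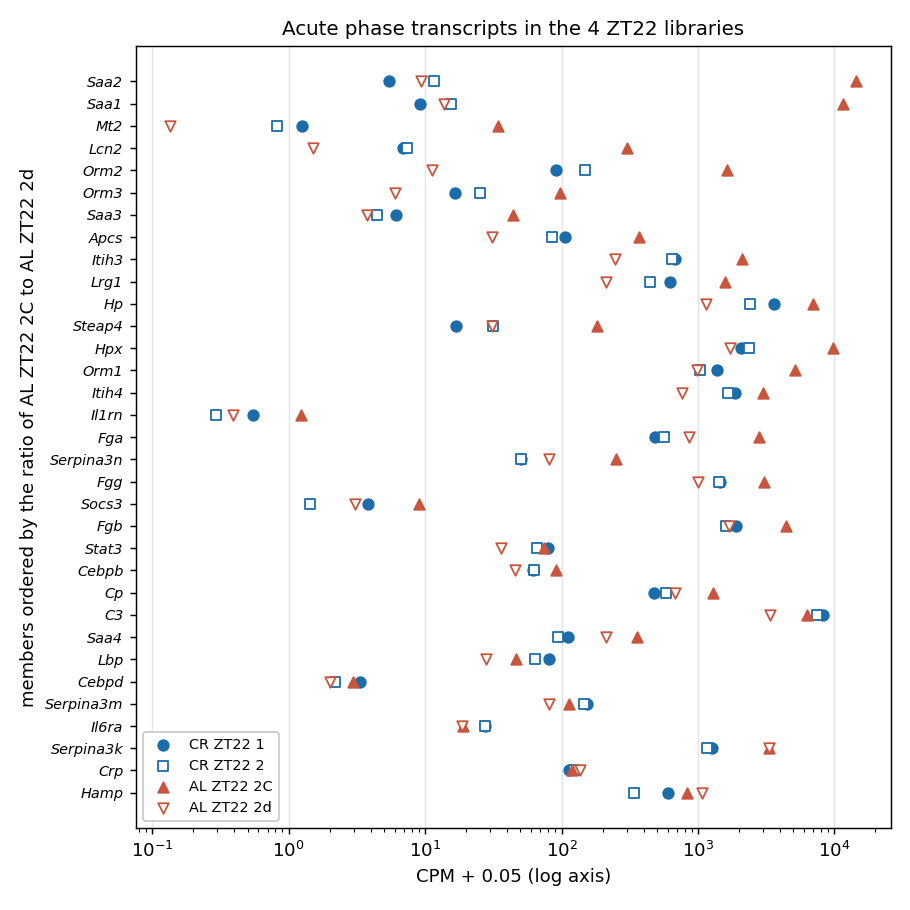
CPM of the 33 acute phase transcripts in the 4 ZT22 libraries on a log axis, one row per gene, ordered by the ratio of AL ZT22 2C to AL ZT22 2d. For Saa1 and Saa2 the AL ZT22 2d points lie among the CR points and the AL ZT22 2C points lie at 11600 and 14446 CPM.

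Summed markers of Kupffer cells, of neutrophils and monocytes and of cholangiocytes also stood highest of the 24 libraries in AL ZT22 2C. The cholangiocyte sum was 127 CPM there, but the bile duct markers Krt7, Krt19 and Epcam were at only 0.391, 1.64 and 1.33 CPM. Other members therefore carried that sum, and Epcam was higher in AL ZT22 2d, at 2.49 CPM. Not all cell types followed. Stellate cell and fibroblast markers summed to 382 and 430 CPM in CR, 310 CPM in AL ZT22 2C and 328 CPM in AL ZT22 2d. The 17 Kupffer cell markers, of the resident liver macrophages, summed to 190 and 260 CPM in CR, 912 CPM in AL ZT22 2C and 302 CPM in AL ZT22 2d. In the list 3 members were called lower in CR: Mpeg1, a pore-forming macrophage protein, Csf1r, the receptor for the macrophage growth factor, and Clec4f, a lectin of Kupffer cells. Clec4f was at 21.6 and 25.2 CPM in CR and at 114 and 40.8 CPM in AL (-1.73 ± 0.42, adjusted p = 0.049). None of the 3 was called without AL ZT22 2C, where the list's median was -0.72 rather than -1.68, nor when scaled by total counts alone. In 13 of the 17 markers CR lay below AL without overlap, against 24.5% of all genes. At the other 5 hours all 3 were called lower in CR, Clec4f by -1.06, Csf1r by -0.998 and Mpeg1 by -0.65 on the log2 scale (adjusted p = 0.0005, 0.0064 and 0.043), and the list summed to 172 to 281 CPM in CR and 326 to 643 CPM in AL. Neutrophil and monocyte markers summed to 29.1 and 26.3 CPM in CR and to 127 and 7.55 CPM in the AL libraries 2C and 2d; the defining neutrophil gene Ly6g had 0 counts in all 4. Malat1, a nuclear RNA read here as a sign of RNA quality, was at 91.9 and 281 CPM in CR and 945 and 472 CPM in AL. The list of such signs summed to 116 and 305 CPM in CR and 506 CPM in AL ZT22 2d. It summed to 996 CPM in AL ZT22 2C, again the highest of the 24 libraries. Hepatocyte markers summed to 69169 and 67870 CPM in CR and to 44450 CPM, the lowest of 24 libraries, in AL ZT22 2C, with 98861 CPM in AL ZT22 2d. Single markers did not all follow the sum. In AL ZT22 2C and AL ZT22 2d, Alb was at 17787 and 50808 CPM and Ttr at 3303 and 7419 CPM. Hnf4a was at 313 CPM in both, Cps1 at 1053 and 1064 CPM, and Apoa1 at 7277 and 5843 CPM. AL ZT22 2d stood apart in mRNAs of the mitochondrial genome, with 14674 CPM, the highest of 24 libraries. Their sums were 2780 and 6364 CPM in CR and 4698 CPM in AL ZT22 2C. The part of these values in the acute phase and Kupffer results was not tested.

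Antigen presentation genes had 2 of 12 members called lower in CR. Cd74, the invariant chain of class II molecules, was at 6.59 and 5.76 CPM in CR and 28.3 and 26.8 CPM in AL (-2.15 ± 0.42, adjusted p = 0.013). H2-Eb1, a class II chain, was at 2.83 and 3.001 CPM in CR and 10.55 and 12.4 CPM in AL (-1.98 ± 0.48, adjusted p = 0.049). Here the AL libraries lay close together and apart from CR, unlike the Kupffer markers, but neither gene was called when scaled by total counts alone. Without AL ZT22 2C neither passed the test, although the log2 fold changes were as large, at -2.11 for Cd74 (adjusted p = 0.078) and -2.09 for H2-Eb1 (adjusted p = 0.17). Markers of T, B and NK cells summed to 19.97 and 17.9 CPM in CR and 54.7 and 38.5 CPM in AL, with 0 of 20 called.

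Genes of fasting metabolism mostly had positive log2 fold changes in CR, with few calls. In the sums of fatty acid oxidation and PPARA targets and of gluconeogenesis, AL ZT22 2C was the lowest of the 24 libraries, at 2733 and 2747 CPM. AL ZT22 2d was at 4118 and 4312 CPM. AL ZT22 2C was also the lowest in the sums of amino acid catabolism, ATF4 targets and the nuclear respiratory chain. In fatty acid oxidation and PPARA targets 2 of 36 members were called higher, the acyl-CoA thioesterases Acot3 and Acot4. Acot4, of peroxisomes, was at 125 and 142 CPM in CR and 9.45 and 34.5 CPM in AL (2.61 ± 0.52, adjusted p = 0.014). Without AL ZT22 2C neither was called, and the list's median was 0.51 rather than 0.82. Cyp4a14, a PPARA-induced fatty acid hydroxylase, was at 1019 and 899.9 CPM in CR and at 5.55 CPM in AL ZT22 2C and 92.7 CPM in AL ZT22 2d, without a call.

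In gluconeogenesis 1 of 18 members was called, Slc37a4, which carries glucose phosphate into the endoplasmic reticulum for glucose release. It was at 188 and 147 CPM in CR and 49.3 and 51.7 CPM in AL (1.73 ± 0.33, adjusted p = 0.0098). Pck1, an early enzyme of the pathway, was at 268 and 473 CPM in CR and 124 and 253 CPM in AL, and G6pc, its last enzyme, at 93.2 and 80.4 CPM in CR and 34.8 and 32.95 CPM in AL; neither passed the test. Cth, which makes cysteine from cystathionine and belongs both to amino acid catabolism and to the ATF4 targets, was at 527 and 435 CPM in CR and 101 and 228 CPM in AL (1.55 ± 0.36, adjusted p = 0.040). It was the one call among 45 and among 20 members of those lists. Without AL ZT22 2C neither gene was called: Slc37a4 was as far apart, at 1.69 (adjusted p = 0.13), and Cth was at 1.08 (adjusted p = 0.37).

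Xenobiotic metabolism had 7 of 50 members called higher in CR and 0 lower, several of them the female-biased enzymes above. The list summed to 15634.5 and 14776 CPM in CR and 8037 and 11813 CPM in AL. At the other hours its sums ran from 12856 to 28156 CPM in CR and from 12334.6 to 24734 CPM in AL. Both AL libraries at ZT22 thus lay below every other AL library, and the CR libraries lay within the range of CR at other hours. Cyp3a59, a drug-metabolising P450, was at 52.9 and 38.1 CPM in CR and 5.78 and 5.23 CPM in AL (3.05 ± 0.55, adjusted p = 0.0061). Calls in this list numbered 0 without AL ZT22 2C. Among 75 nuclear genes of the respiratory chain, 69 had a positive log2 fold change with a median of 0.59, beside -0.03 for all genes, and 1 was called. That gene was Ndufc2, a complex I subunit, at 115 and 116 CPM in CR and 43.4 and 46.1 CPM in AL (1.37 ± 0.33, adjusted p = 0.049). The list's median was 0.24 without AL ZT22 2C, 1.08 without AL ZT22 2d, 0.50 without CR ZT22 1 and 0.82 without CR ZT22 2. The share of all genes with a positive log2 fold change was not computed.

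The anabolic lists and the core clock gave no calls. Of 26 lipogenesis genes 0 passed, with a median of -0.17; Scd1, which makes monounsaturated fatty acids, was at 2768 and 2154 CPM in CR and 6224 and 4607 CPM in AL. Of 25 cholesterol synthesis genes 0 passed, with a median of 0.37. Of 79 cytosolic ribosomal protein genes 0 passed, although 71 had a positive log2 fold change, with a median of 0.33 beside -0.03 for all genes. That median was 0.09 without AL ZT22 2C, 0.74 without AL ZT22 2d, 0.07 without CR ZT22 1 and 0.71 without CR ZT22 2. The 15 core clock genes had 0 calls and a median of -0.20. Arntl, the activator of the loop, was at 8.07 and 9.91 CPM in CR and 11.8 and 17.8 CPM in AL, and Per2, a repressor, at 2.63 and 2.13 CPM in CR and 4.69 and 9.10 CPM in AL. In both clock genes the CR libraries lay below the AL libraries, as they did in 24.5% of all genes.

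Single members were called in 3 further lists, of which the negative acute phase proteins had 1 of 11, the Serpina1e described above. Igtp, an interferon-induced GTPase and the 1 call among 36 interferon-stimulated genes, was at 21.8 and 24.4 CPM in CR and 10.1 and 7.55 CPM in AL (1.39 ± 0.34, adjusted p = 0.049). Hspa1b, an inducible heat shock protein and the 1 call among 16, was at 0.442 and 0.174 CPM in CR and 1.72 and 5.83 CPM in AL (-3.49 ± 0.84, adjusted p = 0.049). Hspa1b shares 62.3% of its words with other genes. The calls of Igtp and Hspa1b lie just inside the threshold.

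**Figure D4:**
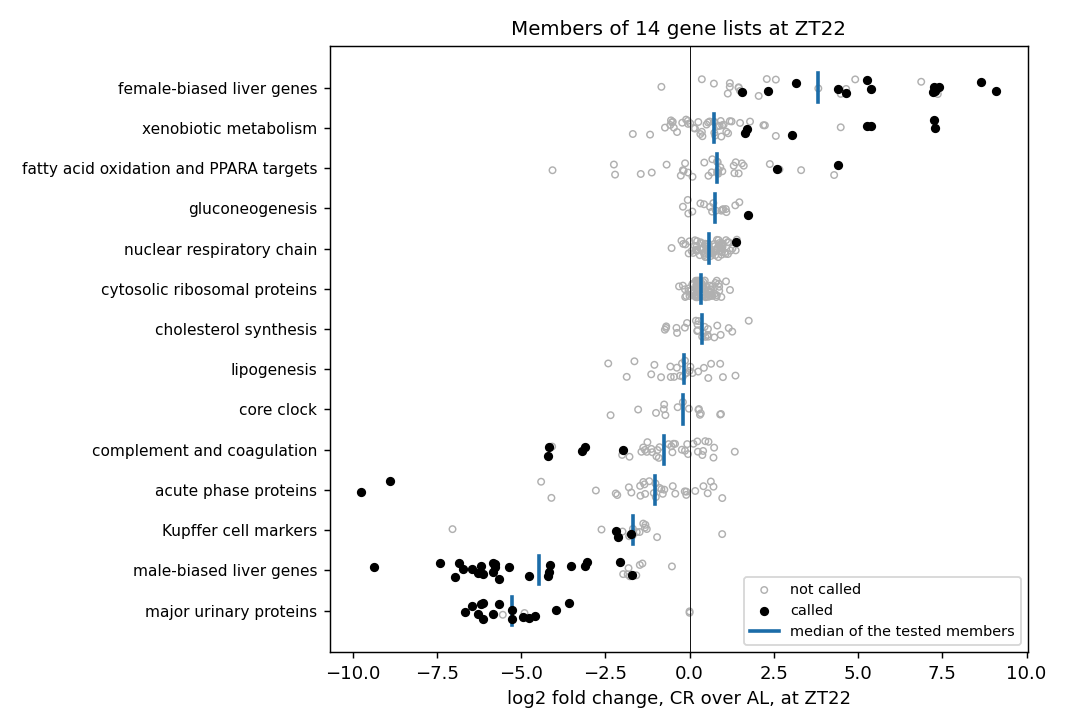
Log2 fold change of CR over AL at ZT22 for every measured member of 14 gene lists, one point per gene, with called genes in black and a bar at each median. Male-biased genes and major urinary proteins lie left of 0, apart from Mup4 and Mup6, which have 0 counts in these libraries, with medians of -4.47 and -5.28, and female-biased genes mostly right of it, with a median of 3.82.

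The diet difference at ZT22 was then set beside the mean diet difference of the other 5 hours, taken between other libraries. Of the 145 genes 136 had the same sign there, against 58.3% of all genes, and 117 were themselves called with the same sign at the other hours, where 10.5% of all genes were called. The 117 comprised 41 of the 58 higher and 76 of the 87 lower genes. Both contrasts came from the same model and share its estimate of the spread, so calls in both are not independent. In 131 of the 145 the difference was larger at ZT22 than at the other hours. Since the 145 were chosen on the ZT22 values, a smaller difference elsewhere is a property of that choice as well and supports nothing. C9 had log2 fold changes of -3.10 at ZT22 and -2.04 ± 0.18 at the other hours.

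No gene was called for a ZT22 diet difference unlike that of the other 5 hours by edgeR, where the smallest adjusted p was 0.253. At an unadjusted p below 0.05 there were 1541 genes (9.95%), and DESeq2 called 45, 23 positive and 22 negative. The 28 genes called at ZT22 and not at the other hours had adjusted p-values of 0.253 to 0.419 for that difference, so none of them was shown to be particular to ZT22. The 4 of smallest p among them, named after their values were seen and without a CPM floor, were Pbld2, Sgk2, Gprin3 and Nox4.

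Pbld2, a phenazine biosynthesis-like protein, was at 235 and 197 CPM in CR and 37.0 and 73.2 CPM in AL at ZT22 (1.97 ± 0.33, adjusted p = 0.0041), and 0.37 on the log2 scale at the other hours. Sgk2, a serum and glucocorticoid-regulated kinase, was at 86.3 and 53.3 CPM in CR and 12.1 and 20.1 CPM in AL (2.12 ± 0.39, adjusted p = 0.0075), and 0.40 at the other hours. Gprin3 was at 3.50 and 6.04 CPM in CR and 31.8 and 20.4 CPM in AL (-2.46 ± 0.47, adjusted p = 0.010), and -0.07 elsewhere. Nox4, an oxidase that makes hydrogen peroxide, was at 3.23 and 4.92 CPM in CR and 10.9 and 20.2 CPM in AL (-1.94 ± 0.38, adjusted p = 0.012), and -0.42 elsewhere. All 4 genes, chosen on these values, had CR and AL libraries that did not overlap at ZT22.

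**Figure D5:**
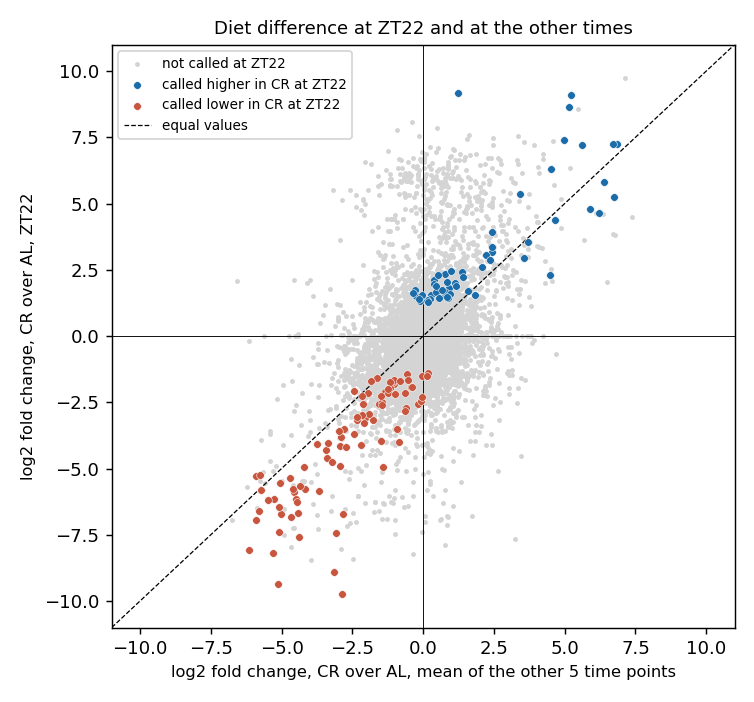
Log2 fold change of CR over AL at ZT22 (vertical) against the mean of the other 5 hours (horizontal) for the genes tested, with the genes called at ZT22 marked. Of the 145 called genes 136 have the same sign on both axes.

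Moxd1, a monooxygenase-like protein listed as male-biased and named here after its values were seen, was, like Saa1 and Saa2, a call that rested on AL ZT22 2C. It had 2 counts in CR and 398 in AL, all 398 of them in AL ZT22 2C and 0 in AL ZT22 2d. The model gave -9.38 ± 2.14 (adjusted p = 0.037), and 2.70 with an adjusted p of 0.95 when AL ZT22 2C was left out. Moxd1 was thus, with Saa1 and Saa2, one of 3 called genes in which the groups overlapped.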

How the data were processed

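Polysome-associated, poly(A)-selected mouse liver RNA was sequenced without strand information. The deposited files hold raw counts per gene; HTSeq, FastQC and DESeq2, without versions, and GRCm38.p5 are named per the submitters' processing notes, and the aligner is not given in the sources used here. Each file lists 52636 genes, of which 52489 were given a symbol from GENCODE vM21. Depth ran from 13.8 M to 60.8 M counts per library, of which 363 features that collect ribosomal RNA, a set chosen after seeing the data, took 1.02% to 62.2%. Counting intervals cover counting error only. Replicate libraries of all 12 groups differed by more than counting noise.

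The fit used edgeR 4.0.16 (R 4.3.3): TMM scaling, filterByExpr, quasi-likelihood, 1 mean per diet and hour over all 24 libraries, Benjamini-Hochberg adjustment over 15490 genes at 0.05. Log2 fold changes are CR over AL with SE. The contrast at the other 5 hours was chosen after seeing the data. A rule named the 12 genes of largest fold per direction above 10 CPM on average. It also named called members of smallest p, at most 4 per list, and members of the acute phase, core clock and urinary protein lists. Other genes were named outside this rule as examples, among them Ghr, Igf1, Stat5b, Bcl6, Scd1, Pck1, G6pc, Cyp4a14, Slco1a1 and Serping1. Members and the 50 lists were chosen with earlier results of these data known. On simulated counts for 15198 genes, the ZT22 comparison recovered 45 of 100 genes changed by 2 and 5 of 100 changed by 1 on the log2 scale, with 2 false calls. Some genes that the rule names are left out here. RefSeq promoters (GRCm38.p6) matched 148 of 195 called or named genes.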

Additional observations from a re-analysis of the deposited data

How the results depend on the processing

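The 145 calls at ZT22 became 1703 with scaling by total counts alone, 526 with DESeq2 1.42.0, 562 with no filter on low counts and 57 when both libraries high in acute phase transcripts (AL ZT22 2C, AL ZT10 1) were left out. Leaving out 1 ZT22 library gave 6 to 124 calls. For the difference against the other 5 hours the 0 calls became 1966, 45 and 149 under the first 3 settings, and 0 to 10 with 1 library left out. The 63 called members over all lists became 238, 137, 161 and 34 under the 4 settings, and 6 to 66 with 1 library left out. DESeq2 called all 145, and the count without a composition factor held 113 of them. Moxd1, at -9.38, ran from -10.38 to 2.70 with 1 library left out, turning positive without AL ZT22 2C, and was at 2.66 without both libraries. Size factors of the DESeq2 kind, a stricter filter, a fit of the 4 ZT22 libraries alone, the ribosomal RNA ratio as a covariate and the omission of CR ZT6 2 and CR ZT18 2 left the ZT22 count between 107 and 177. A fit with the replicate number as a block called 103 genes; the AL libraries at ZT22 both carry the number 2, so the numbers do not pair the samples of this comparison. The causes were not tested. With 2 libraries per group and this depth, a gene without a call is not shown to be unchanged.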
